A study of Homo sapiens with 4 samples.

Results

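The genes AXIN2, LGR5, NKD1, RNF43, ZNRF3, ASCL2, TCF7, LEF1 and DKK1 are established targets of canonical Wnt signalling, and their messages are commonly read as its output. The 9 members were found by an exact match of the gene name on the gene probes of the array, which gave 12 probes, out of 58201 probes for 43317 gene names. AXIN2, TCF7 and ZNRF3 each had more than 1 probe.

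In the canonical Wnt pathway, a Wnt ligand bound to a Frizzled receptor and an LRP co-receptor stops the destruction complex from degrading beta-catenin, which then enters the nucleus and activates transcription together with proteins of the TCF/LEF family. Many of the genes activated in this way act back on the pathway as brakes, which is why they serve as readouts. In the intestinal epithelium this programme maintains the stem cells at the crypt base, and in colorectal cancer it is commonly switched on by mutations in APC or in the beta-catenin gene CTNNB1.

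The messages were measured with 1-colour microarrays in a pair of human cancer lines. HCT116 is a colorectal cancer line that is known to carry an activating CTNNB1 mutation, and A549 is a lung adenocarcinoma line. Each line was transfected with the microRNA miR-891b or with NC1, a negative control RNA, using the lipid reagent Dharmafect1, which made 4 groups of 1 array each. In lists of values the order is NC1 and then miR-891b, first for HCT116 and then for A549, unless a sentence says otherwise. HCT116 was grown in McCoy's 5A and A549 in DMEM, and all groups share the transfection, since no untransfected cells were among the arrays.

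With 1 array per group, no difference within a line or between 2 arrays has a replicate check or a p-value. Each line had a slide and a scan of its own, so line, slide and medium cannot be told apart, and the comparison of miR-891b with NC1 stays within a slide. Levels are given as processed signals and as log2 values relative to the 75th percentile of the same array, which are comparable between arrays for 1 probe but not between probes. A gene was called different at 2-fold or more where both arrays of the comparison had its probe well above background, by the mark of the scanner software. The spread between repeated spots of a probe (median SD of a log2 difference) was 0.061 in HCT116, 0.071 in A549, 0.062 between the NC1 arrays and 0.066 between the miR-891b arrays, over 276, 287, 276 and 274 probes. For probes dimmer than the 75th percentile it was 0.117 to 0.187, over only 7 to 14 probes. It covers the spots only, not cultures or labelling.

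Between 44.7% and 50.3% of probes were well above background on the 4 arrays, and no gene spot was saturated. The share of probes lying in areas of stray signal was 10.8% on HCT116 miR-891b and between 0.0223% and 2.29% on the other arrays, and member probes in such areas are named with their values. The lines matched their labels on most markers: all 6 A549 markers were higher in A549 under both treatments, and of 7 HCT116 markers detected in a line, 5 were higher in HCT116 under NC1 and 4 under miR-891b. VIL1 and LGALS4 were well above background in A549 alone, and GPA33 was not on any array. Of 8 fibroblast markers, included because fibroblast lines are also described in the growth protocol, 2 were well above background in HCT116 and 4 in A549, while COL1A2, COL3A1, DCN and FAP were not on any array.

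The treatment molecule is shown first because its seed, bases 2 to 8 in capitals, is the part that pairs with target messages. The mature sequence is from RefSeq (GRCh38.p14), where it lies on the minus strand at chrX:146001100-146001121.
hsa-miR-891b: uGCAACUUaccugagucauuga
A perfect match to this seed in a message reads AAGTTGC. None of the 12 member probes held these 7 letters or the 6 letters AGTTGC, read along the probe as listed. These occurred in 0.393% and 1.18% of all 58201 probes. The probes cover only 60 bases of each message, so the rest of the transcripts was not searched.

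The following 3 member probes are shown because later results turn on them. The AXIN2 and TCF7 probes are the dimmer ones of genes whose probes differed, and the LGR5 probe stands for a member that was not detected. Their hg19 positions, from the array's annotation, are chr17:63554388-63554447, chr5:133478508-133478567 and chr12:71978325-71978384. Each of the 3 has at least 1 reading frame without a stop codon, which does not show that it lies in coding sequence.
AXIN2 A_24_P298027: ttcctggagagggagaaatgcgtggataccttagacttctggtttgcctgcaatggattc
TCF7 A_33_P3250671: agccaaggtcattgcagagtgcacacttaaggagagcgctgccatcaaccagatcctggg
LGR5 A_23_P98974: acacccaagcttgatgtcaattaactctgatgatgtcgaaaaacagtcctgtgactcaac

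TCF/LEF proteins recognise the motifs CTTTGAT and CTTTGTT, which were searched on both strands in promoters of 250 bases before to 50 bases after a start site. RefSeq promoters (GRCh38.p14) matched 4 members, LEF1, TCF7, DKK1 and RNF43, with 6 promoters. A motif occurred in 2 of the 6, 1 of TCF7 and 1 of DKK1, against 7.61% of all 35116 promoters. CTTTGAT was in 2.62% and CTTTGTT in 5.20% of all promoters. Both matches are CTTTGTT, shown in capitals within their surroundings. In TCF7 it lies on the reverse strand and starts 50 bases before the start site (chr5:134123538-134123604), and in DKK1 it starts 76 bases before it (chr10:52314175-52314241).
TCF7: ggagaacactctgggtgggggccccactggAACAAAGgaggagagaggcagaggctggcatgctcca
DKK1: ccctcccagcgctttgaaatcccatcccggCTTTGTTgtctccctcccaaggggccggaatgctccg
A match is a description of these letters only, and binding was not measured.

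Not all members were detected. Of the 9 members, 6 were well above background on every array (AXIN2, NKD1, RNF43, ZNRF3, TCF7 and DKK1), ASCL2 was in A549 alone, and LGR5 and LEF1 were not on any array. Under NC1, NKD1, TCF7 and RNF43 were at least 2-fold lower in A549 than in HCT116, AXIN2 was 1.78-fold lower, ZNRF3 differed by a log2 value of 0.0050, and DKK1 was 2.16-fold higher in A549. ASCL2, a stem cell factor of the intestinal crypt, was higher in the lung line. After miR-891b, no measured member reached 2-fold in HCT116 by its brighter probe, although the dimmer TCF7 probe was 2.26-fold higher, while ASCL2 and NKD1 were 3.66-fold and 2.90-fold higher in A549.

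**Figure D1:**
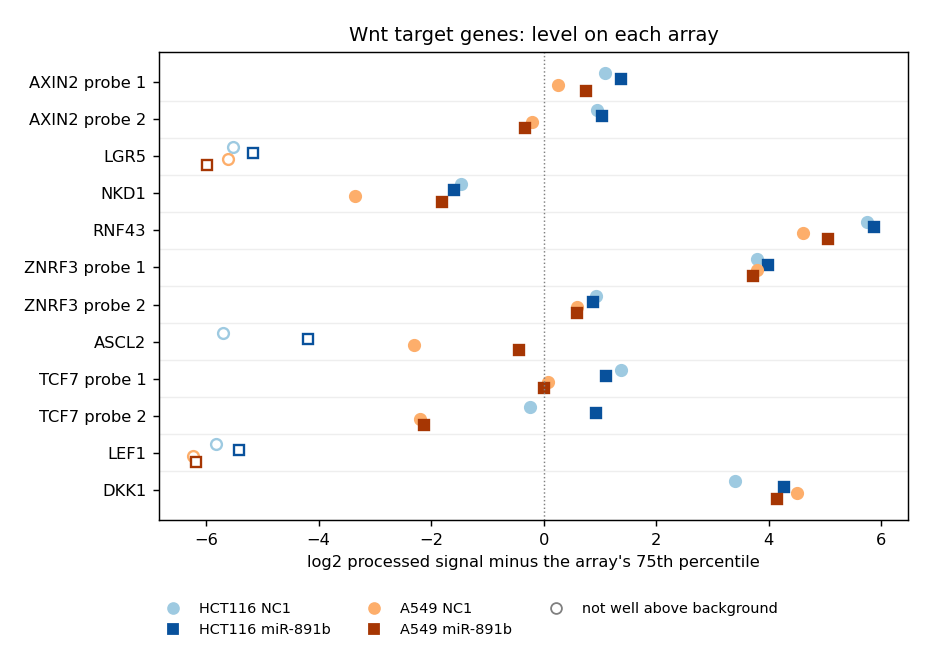
Level of each of the 12 probes of the 9 Wnt target genes on the 4 arrays, as log2 of the processed signal relative to the array's 75th percentile. Each point is 1 array and open points are not well above background. The LGR5 and LEF1 points are open on all 4 arrays and the ASCL2 points are open in HCT116 alone.

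Feedback inhibitors of the pathway are described first. AXIN2, a scaffold of the destruction complex and the most widely used Wnt readout, has its brighter probe at chr17:63525389-63525448 (hg19). Its processed signal was 116 in HCT116 NC1, 148 in HCT116 miR-891b, 88.8 in A549 NC1 and 125 in A549 miR-891b, or log2 levels of 1.08, 1.37, 0.25 and 0.75. Both HCT116 arrays were above the A549 array of the same treatment, and in each line the miR-891b array was the higher one. The line difference (A549 minus HCT116) was -0.83 under NC1 and -0.62 under miR-891b, and the change with miR-891b was 0.29 in HCT116 and 0.50 in A549. This spot lay in an area of stray signal on HCT116 NC1, where 13.1% of nearby dim spots were lit, and the part of that signal in the value was not tested.

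The other AXIN2 probe, shown above, starts 28999 bases from the first and lay outside such areas on all arrays. It read 105, 117, 64.4 and 59.0 in the same order (log2 levels 0.94, 1.04, -0.22 and -0.33). Its line difference was larger, -1.15 under NC1 and -1.37 under miR-891b, so that it passed 2-fold under both treatments. Its change with miR-891b was 0.10 in HCT116 and -0.11 in A549. The 2 probes shared the direction of the line difference but not that of the change in A549, where they lay 0.62 apart. The median distance between the probes of 3819 genes with 2 measured probes was 0.24 in that comparison.

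NKD1 binds Dishevelled and dampens the Wnt signal. Its probe (chr16:50667885-50667944, hg19) had signals of 19.8 and 19.0 in HCT116 and 7.35 and 21.2 in A549, for NC1 and miR-891b in that order. The A549 NC1 array stood alone as low, near the lowest detected signal of that array (4.82), and the other 3 arrays were close together. In log2 levels these are -1.47, -1.59, -3.35 and -1.81. A549 was therefore 3.67-fold lower than HCT116 under NC1 (log2 difference -1.88), but 1.17-fold lower under miR-891b (-0.22). The spot was in an area of stray signal on HCT116 miR-891b, with 26.3% of nearby dim spots lit, and outside one on both A549 arrays.

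RNF43 and ZNRF3 are membrane E3 ubiquitin ligases that remove Frizzled receptors from the cell surface and are themselves held back by R-spondins acting through LGR receptors. RNF43 (chr17:56431063-56431122, hg19) read 2933 and 3323 in HCT116 and 1825 and 2446 in A549. Both HCT116 arrays were above both A549 arrays. The log2 levels were 5.74, 5.87, 4.61 and 5.04, which gives a line difference of -1.13 under NC1 and -0.82 under miR-891b.

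ZNRF3, its close relative, did not show that pattern by its brighter probe. Its brighter probe (chr22:29449612-29449671) read 760, 906, 1039 and 971, with log2 levels of 3.79, 3.99, 3.80 and 3.71. The line difference was 0.0050 under NC1 and -0.28 under miR-891b, and its sign under NC1 was not fixed, since quantile normalization gave 0.16 and the mean over both probes -0.17. The second probe (chr22:29452861-29452920) had log2 levels of 0.94, 0.88, 0.58 and 0.60 and line differences of -0.35 and -0.28. By that probe both HCT116 arrays were above both A549 arrays, as for RNF43, though by smaller amounts. Neither probe reached 2-fold in any comparison.

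DKK1 is a secreted antagonist that blocks the LRP co-receptors, and its own promoter is known to respond to beta-catenin. Its probe (chr10:54076687-54076746, hg19) read 576 in HCT116 NC1, 1101 in HCT116 miR-891b, 1694 in A549 NC1 and 1313 in A549 miR-891b. HCT116 NC1 was the lowest array. The log2 levels were 3.39, 4.27, 4.50 and 4.15, so DKK1 was 2.16-fold higher in A549 under NC1 (log2 1.11), the only measured member called in that direction, while under miR-891b the lines differed by -0.13 (0.14 with quantile normalization).

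The transcription factors of the panel were split. TCF7 (TCF1), which is both a partner of beta-catenin and a Wnt target, has its brighter probe at chr5:133483237-133483296 (hg19), with signals of 141, 123, 78.5 and 74.4. Both HCT116 arrays were above both A549 arrays, at log2 levels of 1.37, 1.11, 0.070 and 0.0034. The line difference was -1.29 under NC1 and -1.11 under miR-891b, and TCF7 was the only member called in the same direction under both treatments when a gene is read from its brighter probe. Median scaling ended the call under miR-891b (-0.99).

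The dimmer TCF7 probe, printed above, starts 4729 bases from the brighter one and read 46.2, 108, 16.4 and 17.0 (log2 levels -0.25, 0.93, -2.19 and -2.12). It also placed HCT116 above A549, by -1.94 under NC1 and -3.05 under miR-891b. The probes disagreed within HCT116, where the brighter one changed by -0.25 with miR-891b and the dimmer one by 1.17. That distance of 1.43 compares with a median of 0.19 and a 90th percentile of 0.58 over 3456 genes with 2 measured probes, of which 2.37% were 2-fold or more apart. On HCT116 miR-891b the 2 spots lay in areas where 21.9% and 11.3% of nearby dim spots were lit, and the part of stray signal in either value was not tested.

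LEF1, a TCF relative that is commonly switched on in colorectal cancer, did not rise clear of background on any array. Its probe (chr4:108968746-108968805, hg19) read 0.97, 1.34, 1.00 and 1.02, below the lowest signals well above background of 4.69 to 6.49. ASCL2, a basic helix-loop-helix factor that works with Wnt signals to maintain intestinal stem cells, was measured at chr11:2289959-2290018. Its signal was 1.05 and 3.12 in HCT116, not well above background on either array, and 15.1 and 54.9 in A549, well above it on both. ASCL2 was at least 2.36-fold higher in A549 under NC1 and at least 6.50-fold higher under miR-891b, where the bound sets A549 against the HCT116 array's lowest detected signal, or the probe's own if higher.

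LGR5, the R-spondin receptor that marks intestinal stem cells, read 1.20, 1.59, 1.53 and 1.17 on the probe printed above, with no array well above background. No difference is given for LGR5 or LEF1.

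The first question is how the panel differed between a colorectal and a lung line. Under NC1, 6 members were measured in both lines, of which 1 was called higher and 3 lower in A549, and the median difference was -0.98. Over all 19218 genes measured there, 11.1% were called higher and 16.2% lower, and the median was -0.10. Under miR-891b, 0 of 6 measured members were called higher and 1 lower, with a median of -0.45, against 11.4% higher and 20.7% lower of 18576 genes and a median of -0.20. One direction under both treatments was called for 7.63% (higher) and 11.8% (lower) of 18062 genes, and among the members for TCF7 alone by the brighter probes and for AXIN2 too by its dimmer probe. Normexp background correction with quantile normalization ended all 3 lower calls under NC1 (NKD1 at -0.38, median -0.46) and kept only the higher call of DKK1. It left 0 calls under miR-891b. Over all genes, calls in either direction also fell, from 5240 of 19218 to 2551 of 19178 under NC1. Under miR-891b they fell from 5960 of 18576 to 3130 of 18544.

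**Figure D2:**
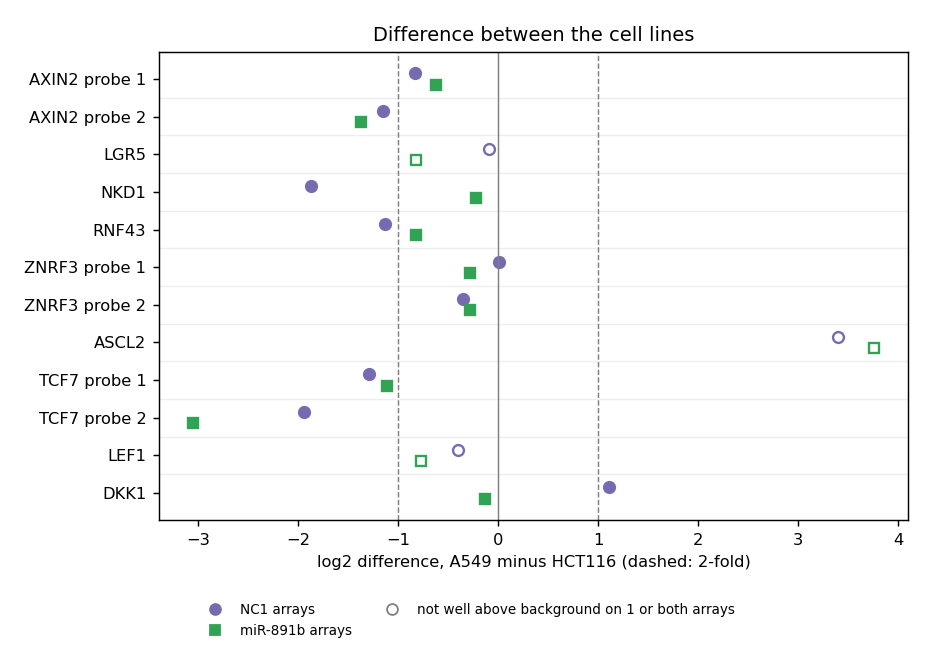
Difference between the lines, A549 minus HCT116, in log2, for each of the 12 probes under NC1 (circles) and miR-891b (squares). Open symbols mark pairs where 1 or both arrays were not well above background, and dashed lines mark 2-fold. Both AXIN2 probes, RNF43, NKD1 and both TCF7 probes lie below 0 under both treatments, and DKK1 lies at 1.11 under NC1 and -0.13 under miR-891b.

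An additive model with a term for the line and a term for the treatment uses all 4 arrays and leaves 1 residual degree of freedom. That residual is how far the change with miR-891b differed between the lines. The SE and p of this model rest on it and on the spread limma pools over genes. They do not measure the spread between replicate cultures, since there were none. Fitted with limma over 22711 genes and adjusted by Benjamini-Hochberg, it called 31.9% of genes for the line term, which is also the slide. TCF7 was lower in A549 by a coefficient of -1.20 (SE 0.24, adjusted p = 0.0271, limma), and kept an adjusted p between 0.00827 and 0.0347 under the 7 alternatives that held it. Leaving out areas of stray signal removed both of its probes. RNF43 was lower by -0.98 (SE 0.24, adjusted p = 0.0467, limma), but was called under only 3 of 8 alternatives, with adjusted p between 0.0428 and 0.108. ASCL2 entered the fit only through the A549 arrays and was undetected in HCT116, so no coefficient or p is given for it beyond the bounds above.

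The other 4 members tested were not called for the line. AXIN2 had a coefficient of -0.73 (SE 0.24, adjusted p = 0.0845, limma) and was called under 3 of 8 alternatives, with adjusted p between 0.0217 and 0.196. NKD1 had -1.05 (SE 0.47, adjusted p = 0.158, limma), and DKK1 0.49 (SE 0.38, adjusted p = 0.369, limma). ZNRF3 had -0.14 (SE 0.24, adjusted p = 0.685, limma). LGR5 and LEF1 did not enter the fit.

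The second question is how the panel differed between miR-891b and NC1 within each line. In HCT116, 6 members were measured and, by their brighter probes, 0 were called in either direction, where 1.16% of 19105 genes were called higher and 0.843% lower. The members' changes ran from -0.25 (TCF7) to 0.88 (DKK1), with a median of 0.16, and 90% of all genes lay between -0.61 and 0.52. The dimmer TCF7 probe was farther out, at 1.17, and the mean over both TCF7 probes was 0.46. DKK1 was 1.84-fold higher and ranked 299 from the highest of the 19105 genes. Its change was 0.80 to 0.92 under the 8 alternatives. The other values of the brighter probes were within that range, at 0.13 for RNF43, 0.20 for ZNRF3, 0.29 for AXIN2 and -0.12 for NKD1.

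In A549, 7 members were measured, of which 2 were called higher and 0 lower, with a median of 0.43. Of 21336 genes, 4.0% were called higher and 5.57% lower, and 90% lay between -1.05 and 0.91. ASCL2 was 3.66-fold higher after miR-891b (log2 1.87), at rank 135 from the highest, and NKD1 2.90-fold higher (log2 1.54), at rank 257. Both were among the dimmer members in their NC1 array, at 15.1 and 7.35 in processed signal. Under normexp with quantile normalization, which draws dim probes together, the changes were 0.62 and 0.26, and neither was called. Over all genes, that setting called 767 of 21307 in either direction, against 2043 of 21336 in the main setting. The changes of RNF43 (0.43), AXIN2 (0.50), ZNRF3 (-0.087), TCF7 (-0.067) and DKK1 (-0.36) stayed under 2-fold. The summed level of the 8 fibroblast markers, relative to the 75th percentile, was 4.28 in A549 NC1 and 10.6 in A549 miR-891b, most of the latter from LUM (log2 level 3.17), and 2.67 and 2.22 in HCT116. Their part in these changes was not tested.

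**Figure D3:**
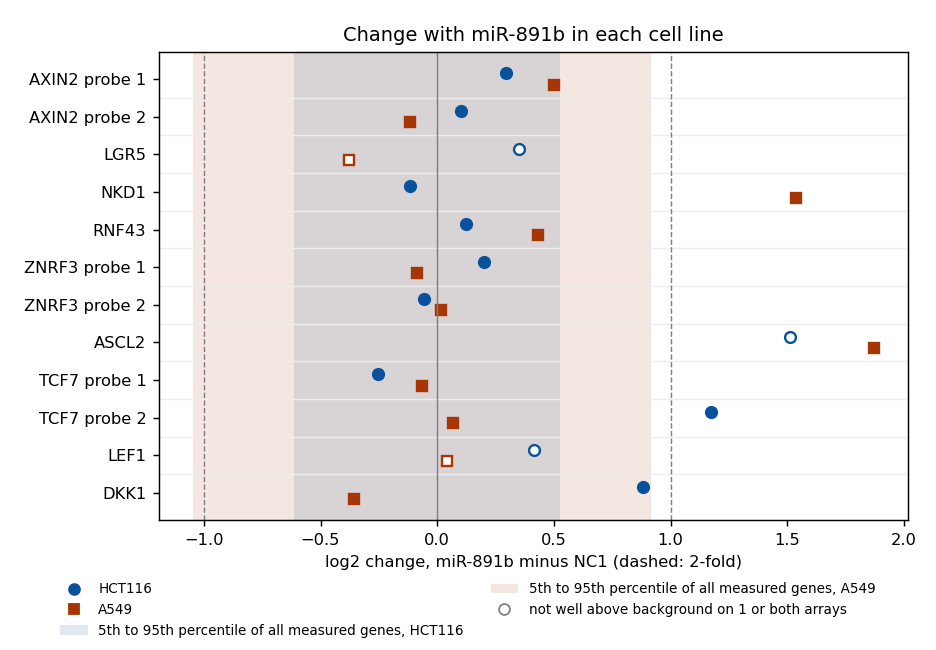
Change with miR-891b, miR-891b minus NC1 in log2, for each of the 12 probes in HCT116 and A549. The shaded ranges hold the middle 90% of all measured genes in each line, and open symbols mark pairs not well above background on 1 or both arrays. NKD1 (1.54) and ASCL2 (1.87) lie above the A549 range, and DKK1 (0.88) and the dimmer TCF7 probe (1.17) lie above the HCT116 range.

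DKK1, NKD1 and ZNRF3 had changes of opposite sign in the 2 lines, although for ZNRF3 quantile normalization turned the A549 change to 0.062. In the additive model, 0% of the 22711 genes were called for the treatment (limma, Benjamini-Hochberg), and 1214 had an unadjusted p under 0.05. The smallest adjusted p over all genes was 0.793, and the coefficients of the 6 members detected on all arrays ran from -0.16 for TCF7 to 0.71 for NKD1. Without the filter on dim probes 6 genes were called, none of them a member.

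The rest of the pathway was taken from 6 lists of 112 genes, of which 109 were found by name on the array. They were chosen from general knowledge, and no list was tested as a set. Among ligands and their secretion, 7 of 25 genes were measured under NC1, with 1 called higher in A549 and 3 lower. RSPO3, an R-spondin, differed by 5.40 under NC1 and 5.83 under miR-891b, whereas WNT6 (-3.87 and -2.61), WLS, the carrier that brings Wnt proteins to the surface (-2.78 and -1.77), and WNT10B (-2.32 and -2.46) were lower in A549. WNT16, named after its values were seen, was at least 61.6-fold higher in HCT116 under NC1 and at least 112-fold higher under miR-891b.

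Among receptors and co-receptors, of 14 measured under NC1, 5 were called higher in A549 and 2 lower (median 0.61), and under miR-891b 7 were higher and 0 lower (median 0.99). LGR4, the R-spondin receptor related to LGR5, had log2 levels of 0.71 and 0.58 in HCT116 and 5.12 and 4.82 in A549, a difference of 4.41 and 4.24. LGR5, its relative in the panel, was not detected in either line. ROR1, a receptor of the non-canonical branch, differed by 3.06 and 3.28. Its relative ROR2, named after its values were seen, went the other way, detected in HCT116 alone and at least 58.2-fold higher there under NC1 and 52.6-fold under miR-891b. FZD5 (1.08 and 1.28) and LGR6 (1.62 and 1.36) were higher by smaller amounts. FZD8 was detected in A549 alone, and was at least 2-fold higher there by a bound under both treatments.

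The destruction complex and signal transduction list had 15 genes measured on all arrays, with 0 called higher in A549 and 4 lower under each treatment. CTNNB1, which encodes beta-catenin, had log2 levels of 5.49 and 5.45 in HCT116 and 4.39 and 4.32 in A549, a difference of -1.10 and -1.13. The HCT116 miR-891b spot lay in an area where 17.3% of nearby dim spots were lit. DVL1, a Dishevelled that passes the signal from Frizzled (-1.98 and -2.09), and the kinase CSNK1D (-1.29 and -1.66) were also lower under both treatments.

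Nuclear partners showed both directions, with 3 of 14 measured called higher and 6 lower under NC1, and 3 higher and 5 lower under miR-891b. The TCF family members TCF7L1 (-2.70 and -1.85) and TCF7L2 (-2.40 and -1.83) were lower in A549, as TCF7 was. TLE2, a corepressor of TCF proteins (-2.63 and -2.72), was lower too, and its relative TLE1 was higher (1.55 and 1.52). The histone deacetylase HDAC1 was lower by smaller amounts (-1.32 and -1.29). Its spot lay in areas of stray signal on both HCT116 arrays, with 12.2% (NC1) and 21.1% (miR-891b) of nearby dim spots lit. The coactivator EP300 was higher by 2.26 and 2.62, and its spot lay in such an area on HCT116 miR-891b (14.2%). PYGO1 and TLE4 were detected in A549 alone, and were at least 2-fold higher there by a bound under both treatments. Among inhibitors, only 3 of 14 found on the array were measured in both lines, and all 3 were lower in A549. They were KREMEN2 (-5.22 and -4.60) and KREMEN1 (-2.99 and -2.34), the receptors through which DKK1 acts, and NKD2 (-2.68 and -2.46), the relative of NKD1. That filter leaves out genes detected in 1 line alone, and 3 inhibitors were at least 2-fold higher in A549 by a bound. Named after their values were seen, these were DKK3 (at least 29.6-fold under NC1 and 8.64-fold under miR-891b), SFRP1, a secreted Frizzled-related protein that binds Wnt ligands (20.6-fold and 26.9-fold), and SFRP4 of the same family (5.98-fold and 3.57-fold). DKK4 was at least 2.90-fold higher in HCT116 under NC1. The inhibitors thus went in both directions.

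Among 16 measured of 22 other reported Wnt targets, 2 were called higher in A549 and 6 lower under each treatment. SP5, a transcription factor induced directly by beta-catenin, had log2 levels of 2.35 and 2.72 in HCT116 and -3.18 and -1.35 in A549, a difference of -5.53 and -4.07. CEMIP (-4.02 and -1.02), PPARD (-2.61 and -1.78) and BMP4 (-2.47 and -2.89) were lower in A549. MMP7, a matrix protease (5.91 and 4.75), and BAMBI, a pseudoreceptor of the TGF-beta family (1.63 and 2.22), were higher. TCF4 was detected in A549 alone, and was at least 2-fold higher there by a bound under both treatments. The counts under NC1 stand beside 11.1% of all genes called higher and 16.2% lower, and those under miR-891b beside 11.4% and 20.7%. Over the 6 lists, 11 of 69 genes were called higher and 24 lower under NC1, and 9 and 16 under normexp with quantile normalization. Over all genes, calls in either direction fell from 5240 of 19218 to 2551 of 19178 between these settings. The 81 differences called at 2-fold in these lists kept their sign in all 641 values computed under another scaling, probe rule or filter. They were chosen for their size in the same data, and some of these settings cannot change a value. A change of sign was therefore unlikely from the start, and the count says little about stability.

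With miR-891b, 0 of 74 list genes measured in HCT116 were called higher and 3 lower, namely WNT6 (-1.32), WNT11 (-1.12) and CEMIP (-1.48). Over all genes measured in HCT116, 1.16% were called higher and 0.843% lower. In A549, 4 of 79 were called higher and 4 lower, against 4.0% and 5.57% of all genes. Under normexp with quantile normalization, 0 list genes were called in HCT116, and 0 were called higher and 1 lower in A549. Over all genes, that setting called 44 of 19095 in HCT116 and 767 of 21307 in A549, in either direction. In the main setting, SP5 was higher in A549 after miR-891b by 1.84, CEMIP by 1.53, WLS by 1.21 and PYGO1, a beta-catenin cofactor, by 1.06. Lower in A549 were WNT7B (-1.88), CCND1, which encodes cyclin D1 (-1.61), DKK3 (-1.36) and FZD6 (-1.02). CEMIP, a hyaluronan-binding protein, was lower in HCT116 and higher in A549, a difference between the lines that was not tested.

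**Figure D4:**
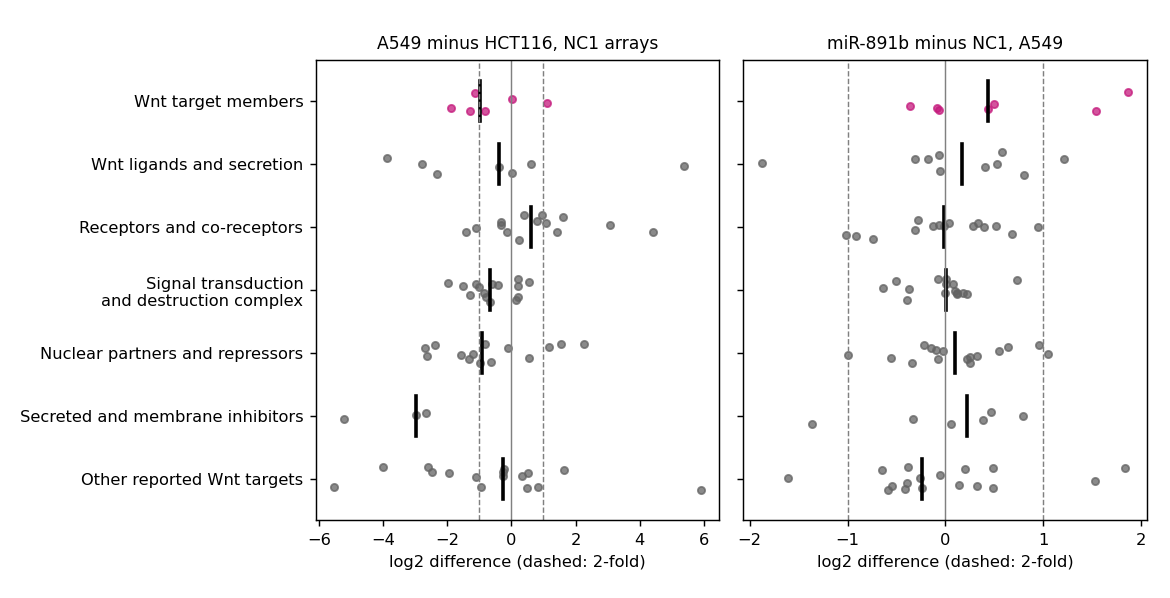
Differences in log2 for the Wnt target members and for 6 lists of pathway genes, with A549 minus HCT116 under NC1 on the left and miR-891b minus NC1 in A549 on the right. Each point is 1 gene well above background on both arrays, thick bars are medians and dashed lines mark 2-fold. Genes detected in 1 line alone are not drawn on the left, among them 3 inhibitors at least 2-fold higher in A549 and 1 higher in HCT116. The 3 inhibitors that are drawn lie at or below -2.68, and 2 members lie beyond 1.53 on the right.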

How the data were processed

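Messenger RNA of HCT116 and A549 cells was labelled with Cy3 from 100 ng of total RNA and hybridised to 1-colour Agilent arrays, per the labels. Per the file headers and the submitters' processing notes, scans were quantified with Agilent Feature Extraction 11.5.1.1, and probes are placed on hg19. Intensity values in the deposited scanner output are linear and not scaled between arrays. A deposited table by the authors holds log2 values whose making is not given in the sources used here. Their median distance from the main values was at most 0.0069 on any array, and the largest was 0.109, so they share scale and direction, with column medians of -3.80 to -3.60, and served as an alternative.

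Outlier spots were left out, log2 processed signals were averaged per probe, and each array's 75th percentile over gene probes (processed signal 54.9 to 74.8) was subtracted. Of several probes of a gene, the brightest by mean over the 4 arrays gave its value. Differences are miR-891b minus NC1 or A549 minus HCT116, called at 2-fold. Arrays are 1 per group, and their number limits the precision. limma 3.58.1 in R 4.3.3 fitted the additive model on genes well above background on at least 2 arrays, with Benjamini-Hochberg adjustment over all genes and an adjusted p threshold of 0.05, after a test on simulated data. A probe was in an area of stray signal where at least 10% of dim spots within 10 rows and columns were well above background on that array. Python 3.11.15, numpy 2.4.6 and pandas 2.3.3 gave the rest.

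The members, gene lists, markers and the stray signal rule were chosen with earlier results of these data known. The genes named from the lists were those 2-fold different between the lines under both treatments or changed 2-fold within a line, up to 6 per list by size. CCND1, PYGO1 and the genes given by a bound were named outside this rule, after their values were seen. CSNK1E, TIKI1 and ZNRF3-AS1 were not matched by name. Alternatives were median scaling, quantile normalization alone or after normexp background correction (offset 50), the authors' values, no filter on dim probes, the mean over probes, outlier spots kept, stray areas left out, and thresholds of 1.5-fold and 3-fold.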

Additional observations from a re-analysis of the deposited data

Results flagged for a closer look

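In 3 members the array pair of each line moved in the opposite direction with miR-891b. With 1 array per group, this contrast of the lines was not tested. For NKD1 the A549 change minus the HCT116 change was 1.65 on the log2 scale, from 1.54 in A549 and -0.12 in HCT116. The latter is no larger than the spread of dim spots (SD 0.117, over only 11 probes). For DKK1 it was -1.24, from -0.36 in A549 and 0.88 in HCT116. For ZNRF3 it was -0.29, from -0.087 and 0.20, and its second probe gave changes of 0.014 and -0.059, the other way round.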

How the results depend on the processing

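No paired test over replicates was possible because each group had 1 array. The additive model compares the treatments within each line, and its line term also holds the slide. No replicate could be left out. Of 192 fold differences of members under the alternatives, 135 moved by less than the spread between spots and 57 moved by more. Dropping the filter on dim probes cannot move a value, and the mean over probes cannot move that of a gene with 1 probe. Keeping outlier spots or taking the authors' values hardly changed the main values. The count of 135 therefore overstates how stable the differences were. No called difference changed sign, but these were chosen for their size. Normexp with quantile normalization left 1 member, DKK1, called between the lines under NC1 (4 in the main setting), 0 under miR-891b (1) and 0 with miR-891b in A549 (2). Over all genes it called 2551 of 19178, 3130 of 18544 and 767 of 21307 in these comparisons. The main setting called 5240 of 19218, 5960 of 18576 and 2043 of 21336. Median scaling left 0 members called between the lines under miR-891b, where it called 5758 of 18576 genes. It moved the median of all genes in that comparison from -0.20 to -0.083. Without the filter on dim probes, 2 members were called between the lines under miR-891b, 1 in HCT116 (0 in the main setting), and 6 genes for the treatment term (0). Of all 43317 genes, leaving out that filter called 13037 between the lines under miR-891b and 4222 in HCT116. At 1.5-fold, 3 members were called between the lines under miR-891b and 1 in HCT116, beside 10050 of 18576 and 1827 of 19105 genes. At 3-fold, 1 was called between the lines under NC1, 0 under miR-891b and 1 in A549. That threshold called 2396 of 19218 genes between the lines under NC1 and 2753 of 18576 under miR-891b. In A549 it also called fewer of the 21336 genes than the 2043 at 2-fold. Leaving out stray areas removed NKD1 and both TCF7 probes and left 1 member called in A549, where 1780 of 18751 genes were called. AXIN2, then read from its second probe, was the member called lower under both treatments. Line calls numbered 7249 of 22711 genes in the additive model, and 4990 to 9381 under the alternatives. Of 108 member coefficients, 99 kept their side of the threshold. A call was lost by 6 (RNF43 under 5 settings, ASCL2 under 1) and gained by 3, all of AXIN2. The 99 include the treatment coefficients, which could hardly cross the threshold. Over all genes, the smallest adjusted p of that term was 0.782 to 0.836 (limma), except without the filter on dim probes. They also include line coefficients of ASCL2, which was undetected in HCT116 and entered the fit only through A549. The count of 99 therefore overstates stability. Signal over background limits LGR5 and LEF1 on all arrays, ASCL2 in HCT116 and NKD1 in A549 NC1.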
